A study of Homo sapiens with 6 samples.

Results

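Small nucleolar RNA host genes (SNHGs) were followed in RNA-seq of NK92 cells. The members were every gene of the count table whose symbol is SNHG with a number, together with GAS5, ZFAS1, DANCR and EPB41L4A-AS1, which gave 32 of 36601 genes. The rule reads symbols only. Of the 32 genes, 29 had more than 1 CPM (counts of a gene scaled to the size of the library) in at least 2 libraries and were tested among 12263 genes. SNHG18, SNHG27 and SNHG28 had 0 counts in each of the 6 libraries, which allows a level of up to 0.0897 CPM in the smallest library, counting error only. NK92 is a human natural killer (NK) cell line that depends on IL-2. The cells stably carried a control shRNA (shCtrl, 3 libraries) or an shRNA against miR155HG (shmiR155HG, 3 libraries), and all of them were stimulated with IL-2 at 1000 U/mL and IL-12 at 10 ng/mL for 12 h, so unstimulated cells were not part of the comparison. The vector and promoter of the shRNAs for these libraries, and whether a line was 1 clone, are not given in the sources used here. The methods speak in general of at least 3 independent trials, but do not say whether these libraries came from separate cultures, so p-values measure only the spread between these libraries, which may be technical.

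An SNHG is transcribed as a spliced RNA whose introns hold small nucleolar RNAs (snoRNAs). After splicing, the snoRNA is trimmed out of the intron and enters a ribonucleoprotein that modifies ribosomal or spliceosomal RNA. Box C/D snoRNAs guide ribose methylation, H/ACA snoRNAs guide pseudouridylation, and scaRNAs do the same work in Cajal bodies. The joined exons remain as a long non-coding RNA, and for several hosts, GAS5 among them, this RNA is known to be degraded by nonsense-mediated decay (NMD) when it is translated. Several hosts also begin with a run of pyrimidines, as the mRNAs of ribosomal proteins do, and many are widely expressed in growing cells. The libraries were made from RNA captured on oligo(dT) beads, and the values below are counts per gene, meant to follow the host RNA. They cannot be taken as free of intron or snoRNA reads. For SNHG1, for example, the merged annotated exons of 3976 bases fill the whole gene from 62851978 to 62855953. The question asked of the data was which of these hosts differed between shmiR155HG and shCtrl cells.

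Total counts ranged from 33454786 to 39157264 per library, and the common biological coefficient of variation was 8.71%. MIR155HG, the gene targeted by the shRNA, had 62 to 73 counts in shCtrl and 10 to 28 counts in shmiR155HG libraries (log2 fold change −1.78, adjusted p = 0.00450). The NK identity of the cells was checked with 16 marker genes. Of these, 15 passed the filter, with NKG7 at 656 to 705 CPM, while CD7 stayed at 0 to 0.877 CPM. At the same test 4 of the 15 fell (GZMB, GZMA, PRF1 and NCR3) and 4 rose (IL2RB, EOMES, TBX21 and KLRC1). GZMB, the granzyme of cytotoxic granules, had the largest change, from 1165 to 1244 CPM in shCtrl to 511 to 571 CPM in shmiR155HG libraries, which is more than the difference in the summed level of the list. Their summed level was 5003 to 5064 CPM in shCtrl and 4525 to 4700 CPM in shmiR155HG libraries. Among T cell genes, 3 of 9 passed the filter (summed level 110.0 to 117.7 CPM in shCtrl and 120.7 to 131.3 CPM in shmiR155HG libraries), CD8B was at 0 in all libraries, and CD3G reached at most 0.0822 CPM. The 3 that passed were TRAC (68.1 to 78.0 CPM over all libraries), CD28 (19.1 to 22.4 CPM) and CD6, which rose from 16.9 to 22.7 CPM in shCtrl to 29.6 to 32.7 CPM in shmiR155HG libraries (adjusted p = 0.000101). Among B cell genes, PAX5 alone of 6 passed the filter and rose from 228 to 264 CPM in shCtrl to 340.3 to 343.5 CPM in shmiR155HG libraries, while BLNK was at 0 and MS4A1 reached at most 0.129 CPM, and the summed level was 229 to 265 CPM and 341 to 344 CPM. Of 8 myeloid genes 2 passed (summed level 128 to 144 CPM in shCtrl and 103 to 108 CPM in shmiR155HG libraries), with ITGAX lower in shmiR155HG libraries and FCN1 at 0. Of 9 stromal and epithelial genes 0 passed, with a summed level of at most 1.21 CPM and COL1A2, EPCAM, KRT19 and CDH1 at 0. The part of these markers in the levels below was not tested.

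Of the 29 hosts tested, 3 rose in shmiR155HG cells and 0 fell at an adjusted p under 0.05. The 3 genes were SNHG3, SNHG7 and SNHG30, with rises of 12.5%, 17.2% and 41.7%. They made 10.3% of the hosts, while 7.26% of all genes tested were higher and 8.02% were lower, so the share of hosts called was close to the background. At an unadjusted p under 0.05, 5 hosts were higher and 1, SNHG32, was lower, and DESeq2 and limma-voom each also called 3 higher and 0 lower. Without shCtrl replicate 1, 1 host was higher, SNHG25, which then passed the filter through shmiR155HG libraries alone. Without shmiR155HG replicate 1, 2 or 3, 1 host was higher, SNHG20, SNHG3 or SNHG7 in that order. None of SNHG3, SNHG7 and SNHG30 therefore passed without shCtrl replicate 1 or without shmiR155HG replicate 1. Leaving out shCtrl replicate 3 made 1 host lower, SNHG32. The study's own rule for the exact test of edgeR was P below 0.01 before adjustment, with a fold change above 1.2. As run here, this rule called 3 hosts higher and 0 lower, beside 4.5% and 3.81% of all genes. These were SNHG30, SNHG25 and SNHG20, and SNHG3 and SNHG7 did not reach its fold change. The groups did not overlap for 5 hosts that were higher and 1 that was lower (SNHG29), against 15.2% and 15.6% of all genes. The 5 include SNHG25, which passed the filter through its shmiR155HG libraries. The fold change was positive for 20 of the 29 hosts (69.0%), against 50.2% of all genes, and the median log2 fold change was 0.07 for the hosts and 0.0010 for all genes. Summed over the hosts, the level was 1942, 1970 and 1899 CPM in shCtrl replicates 1, 2 and 3 and 1984, 2007 and 2019 CPM in shmiR155HG replicates 1, 2 and 3. The summed levels of the groups did not overlap, yet most of the single genes did.

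**Figure D1:**
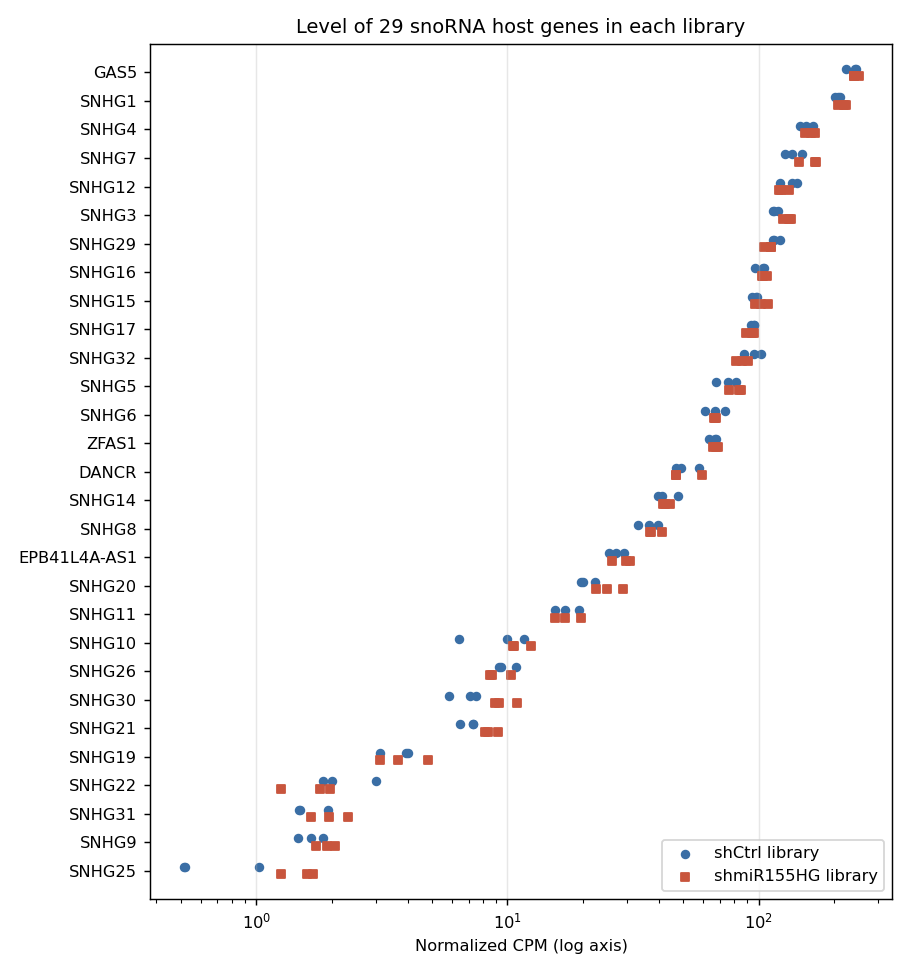
Normalized level of each of the 29 hosts tested, in CPM on a log axis, with 1 circle per shCtrl library and 1 square per shmiR155HG library, ordered by mean CPM, which is not corrected for gene length. For most hosts circles and squares lie over each other, and the groups stand apart for SNHG3, SNHG20, SNHG21, SNHG25, SNHG29 and SNHG30.

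Most hosts were abundant and their levels were tightly measured. A mean of at least 20 CPM was reached by 19 hosts, and among these the log2 fold change lay between −0.15 and 0.30. For 17 of the 19 the whole 95% interval of the log2 fold change lay within 0.3 of 0. The size of the change in these 19 genes had a median of 0.08 on the log2 scale, near the median of 0.09 for the 7537 genes at that level. Of the 19, 2 passed the test (10.5%), against 20.3% of the 7537 genes. The 10 hosts below 20 CPM were measured less closely, with intervals reaching 0.25 to 0.87 to either side of the estimate, and 1 of them passed. At that depth, an estimate within this distance of 0 could not be told from 0. A larger one could still fail the adjusted test, as for SNHG25 at a log2 fold change of 1.12. Divided by the length of the canonical transcript, the mean level was highest for GAS5 at 313 CPM per kb, followed by SNHG29 at 256, SNHG16 at 208 and SNHG1 at 182, and lowest for SNHG31 at 0.818. Divided by the length of all merged exons, SNHG1 (53.1 CPM per kb) and SNHG32 (50.3) came before GAS5 (48.7), so the order of the leading hosts depended on the length used.

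**Figure D2:**
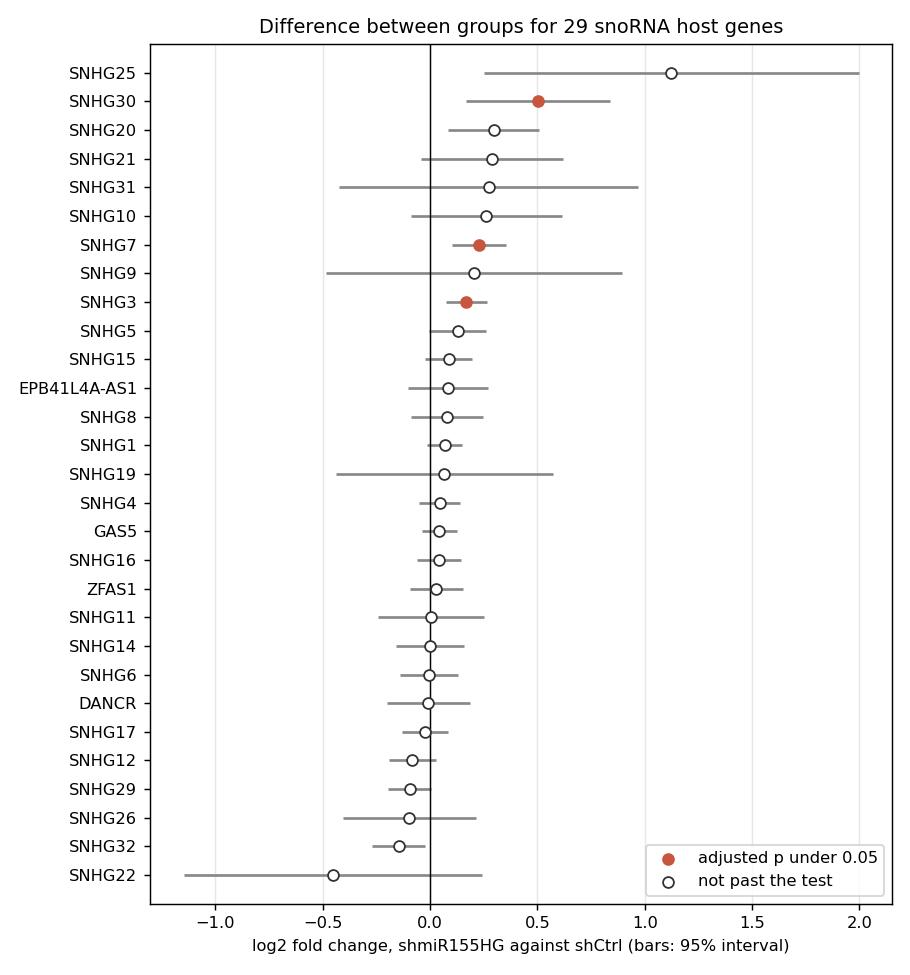
Log2 fold change of the 29 hosts, shmiR155HG against shCtrl, with bars for the 95% interval and filled circles for the 3 hosts at an adjusted p under 0.05. SNHG20, SNHG25 and SNHG32 have intervals that leave out 0 but did not pass after adjustment over 12263 genes.

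The first bases of the hosts are shown because a C at the start site followed by pyrimidines (C or T) is the hallmark of RNAs whose translation is tied to growth signals. Sequences are from RefSeq (GRCh38.p14), read 5′ to 3′ on the strand of the gene, with 10 bases before the annotated start and 20 from it, and 28 of the 32 members had an entry. A run was counted where the first base is C and at least 5 pyrimidines in a row begin there, on the strand of the gene only. Capitals mark this run in the 6 tested hosts that hold it, and SNHG1, SNHG7, SNHG3 and SNHG30 follow without one.
SNHG4 (chr5:139274091-139274120, plus): ctcccggctgCCCTTTCCCCTCCggcctct
SNHG12 (chr1:28581854-28581883, minus): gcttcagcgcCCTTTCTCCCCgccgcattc
SNHG32 (chr6:31834906-31834935, plus): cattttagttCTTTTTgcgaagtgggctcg
SNHG19 (chr16:2155339-2155368, minus): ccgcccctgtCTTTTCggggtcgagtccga
SNHG5 (chr6:85678714-85678743, minus): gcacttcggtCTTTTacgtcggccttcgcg
ZFAS1 (chr20:49278632-49278661, plus): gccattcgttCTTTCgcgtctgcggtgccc
SNHG1 (chr11:62855866-62855895, minus): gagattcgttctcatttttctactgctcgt
SNHG7 (chr9:136728165-136728194, minus): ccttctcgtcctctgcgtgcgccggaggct
SNHG3 (chr1:28505933-28505962, plus): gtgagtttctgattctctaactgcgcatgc
SNHG30 (chr17:35568104-35568133, plus): tgtaagacctgagccgggcggagaagcaaa

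Such a run was present in 6 of 25 tested hosts with an entry (24%), in 5.48% of the 9138 tested genes with an entry and in 4.04% of all 27305 entries. The 6 hosts with a run had a median of 0.04 on the log2 scale, with 4 positive and none called. The other 19 had a median of 0.07, with 13 positive and 3 called. SNHG1 and SNHG7 have runs of 3 and 4 pyrimidines from the annotated start and fell under the limit. The annotated start can differ from the one used in these cells, and annotations differ from each other. GAS5, counted here without a run, starts at 173869045 in RefSeq, while its outermost start in GENCODE is 173868882. For SNHG12, counted with a run, these starts are 28581873 and 28583132. The split of the hosts by a run therefore holds for the RefSeq starts only.

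Of the 3 genes called, 2 were among the 11 H/ACA hosts tested, beside 7.26% of all genes that were higher. The log2 fold change was positive for 9 of these 11 hosts, against 50.2% of all genes, and the median was 0.08. Whether the classes of hosts differ was not tested. SNHG3 (chromosome 1 of hg38, 28505980 to 28510892, plus strand) carries SNORA73A and SNORA73B, which act in the cleavage of the ribosomal RNA precursor. Its level was 113.7, 119.9 and 114.8 CPM in shCtrl replicates 1, 2 and 3 and 132.5, 124.6 and 134.7 CPM in shmiR155HG replicates 1, 2 and 3. Each shmiR155HG library lay above each shCtrl library. SNHG3 rose by 0.17 on the log2 scale (SE 0.047, adjusted p = 0.0135 by the quasi-likelihood test of edgeR, as for every adjusted p of a single gene here), and the adjusted p was 0.0513, 0.0600 and 0.0783 without shCtrl replicate 1, shmiR155HG replicate 1 and shmiR155HG replicate 3.

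SNHG7 (chromosome 9, 136721366 to 136728184, minus strand) carries SNORA17A and SNORA17B. Its level was 127.7, 135.5 and 148.3 CPM in shCtrl replicates 1, 2 and 3 and 169.4, 167.3 and 145.3 CPM in shmiR155HG replicates 1, 2 and 3. The lowest shmiR155HG library lay below the highest shCtrl library, so the groups overlapped. SNHG7 rose by 0.23 on the log2 scale (SE 0.060, adjusted p = 0.0130). SNHG7 has the highest GC content of the hosts tested, 65.9% in its canonical transcript against a median of 47.9% for the hosts, and across the 12216 genes with a GC value, which share the same libraries, the fold change rose with GC content with Pearson's r of 0.19. With a correction for GC content the log2 fold change of SNHG7 was 0.14 (adjusted p = 0.167) and did not pass the test, while SNHG3 and SNHG30 passed it. Leaving out shCtrl replicate 1 or 2 or shmiR155HG replicate 1 or 2 also ended the call of SNHG7, with adjusted p from 0.0534 to 0.0705.

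None of the other 9 H/ACA hosts passed the test. DANCR (chromosome 4, 52712325 to 52723623, plus strand), which carries SNORA26 and whose spliced RNA is known for holding back differentiation, was at 48.9, 57.8 and 47.0 CPM in shCtrl replicates 1, 2 and 3 and at 47.0, 46.7 and 59.3 CPM in shmiR155HG replicates 1, 2 and 3. Both groups had 1 library near 58 to 59 CPM and 2 below 50 CPM, and the log2 fold change was −0.0077 (95% interval −0.20 to 0.19). EPB41L4A-AS1 (chromosome 5, 112160526 to 112164818, plus strand), the host of SNORA13, was at 25.4, 27.1 and 29.1 CPM in shCtrl and at 29.6, 30.8 and 26.1 CPM in shmiR155HG replicates 1, 2 and 3. Its groups overlapped, with a log2 fold change of 0.08 (95% interval −0.10 to 0.27). The log2 fold change was 0.05 for SNHG4, 0.08 for SNHG8, 0.09 for SNHG15, 0.0055 for SNHG11 and −0.02 for SNHG17. SNHG9 (0.20) and SNHG31 (0.27) lay near 2 CPM and their intervals reached 0.89 and 0.97.

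The 11 box C/D hosts tested held 1 gene called, beside 7.26% of all genes that were higher. Their median log2 fold change was 0.03, with 6 of 11 positive, against 50.2% of all genes. SNHG30 (chromosome 17, 35568050 to 35574900, plus strand) carries SNORD7. Its level was 7.12, 7.48 and 5.88 CPM in shCtrl replicates 1, 2 and 3 and 9.25, 8.91 and 10.9 CPM in shmiR155HG replicates 1, 2 and 3. Every shmiR155HG library was above every shCtrl library, at a low level. SNHG30 rose by 0.50 on the log2 scale (SE 0.16, adjusted p = 0.0352), and it passed the test without shCtrl replicate 2 but not without any of the other 5 libraries, where the adjusted p was 0.0526 to 0.166.

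SNHG1 (chromosome 11, 62851978 to 62855953, minus strand) holds 8 box C/D snoRNAs, SNORD22 and SNORD25 to SNORD31. Its level was 201.3, 207.3 and 210.4 CPM in shCtrl replicates 1, 2 and 3 and 223.5, 206.2 and 219.1 CPM in shmiR155HG replicates 1, 2 and 3. With 1 shmiR155HG library within the shCtrl range, the log2 fold change was 0.07 (95% interval −0.01 to 0.15, adjusted p = 0.290). ZFAS1 (chromosome 20, 49278178 to 49299600, plus strand), the host of SNORD12, SNORD12B and SNORD12C, was at 67.2, 67.8 and 63.7 CPM in shCtrl and at 69.1, 67.5 and 66.0 CPM in shmiR155HG replicates 1, 2 and 3. Its groups overlapped within a narrow range, with a log2 fold change of 0.03 (95% interval −0.09 to 0.15).

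SNHG32 had the lowest log2 fold change among hosts of at least 20 CPM. It was at 95.6, 102.4 and 87.3 CPM in shCtrl and at 81.3, 90.6 and 85.8 CPM in shmiR155HG replicates 1, 2 and 3, so 1 shmiR155HG library lay above the lowest shCtrl library. Its log2 fold change was −0.15 (adjusted p = 0.105), and without shCtrl replicate 3 it passed the test as lower (−0.20, adjusted p = 0.0236). SNHG29 was lower in each shmiR155HG library (105.1 to 111.8 CPM) than in each shCtrl library (114.0 to 121.3 CPM), but its log2 fold change of −0.09 did not pass (adjusted p = 0.215). The other box C/D hosts had log2 fold changes of 0.13 (SNHG5), 0.04 (SNHG16), 0.07 (SNHG19), −0.10 (SNHG26), −0.0042 (SNHG6) and −0.0003 (SNHG14). SNHG14, the long imprinted transcript that runs through the SNORD116 cluster, was at 39.6 to 47.9 CPM in shCtrl and 41.6 to 44.5 CPM in shmiR155HG libraries.

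GAS5, SNHG12 and SNHG25 hold snoRNAs of both classes. GAS5 (chromosome 1, 173858559 to 173868882, minus strand), known for its rise in growth-arrested cells, holds 10 box C/D snoRNAs and 1 H/ACA snoRNA. Its level was 242.2, 244.5 and 222.8 CPM in shCtrl replicates 1, 2 and 3 and 240.0, 250.2 and 240.6 CPM in shmiR155HG replicates 1, 2 and 3. The groups overlapped, and the log2 fold change was 0.04 (95% interval −0.04 to 0.13, adjusted p = 0.543). SNHG12 had a log2 fold change of −0.08 (95% interval −0.19 to 0.03). SNHG25 was at 1.03, 0.521 and 0.513 CPM in shCtrl and at 1.25, 1.68 and 1.58 CPM in shmiR155HG replicates 1, 2 and 3. These groups did not overlap, and the log2 fold change was 1.12 with a 95% interval from 0.25 to 2.0 (adjusted p = 0.0748). SNHG25 passed the test without shCtrl replicate 1 (1.54, adjusted p = 0.0378). In shCtrl only replicate 1 was above 1 CPM, so SNHG25 passed the filter through its shmiR155HG libraries. The lack of overlap and that call are therefore not independent of the filter.

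The 4 hosts of a scaRNA, SNHG10, SNHG20, SNHG21 and SNHG22, reached a median of 0.28 on the log2 scale, and none passed the test. SNHG20, which carries SCARNA16, was at 20.05, 19.6 and 22.4 CPM in shCtrl and at 22.5, 24.9 and 28.9 CPM in shmiR155HG replicates 1, 2 and 3. The groups were separated by a narrow gap, with a log2 fold change of 0.30 (95% interval 0.08 to 0.51, adjusted p = 0.0538), just above the threshold. SNHG20 passed in 6 of 18 alternatives, among them no filter on low counts (adjusted p = 0.0445) and leaving out shCtrl replicate 3 (adjusted p = 0.0360) or shmiR155HG replicate 1 (adjusted p = 0.0302). SNHG21 was also higher in each shmiR155HG library (8.17 to 9.15 CPM) than in each shCtrl library (6.45 to 7.29 CPM), with a log2 fold change of 0.29 (adjusted p = 0.260). For SNHG10 1 shCtrl library stood low (6.43 CPM, against 9.92 and 11.6 CPM in the others), and the log2 fold change was 0.26 (95% interval −0.09 to 0.61). SNHG22 was at 1.85 to 3.002 CPM in shCtrl and 1.25 to 1.97 CPM in shmiR155HG libraries (log2 fold change −0.45, 95% interval −1.15 to 0.24).

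**Figure D3:**
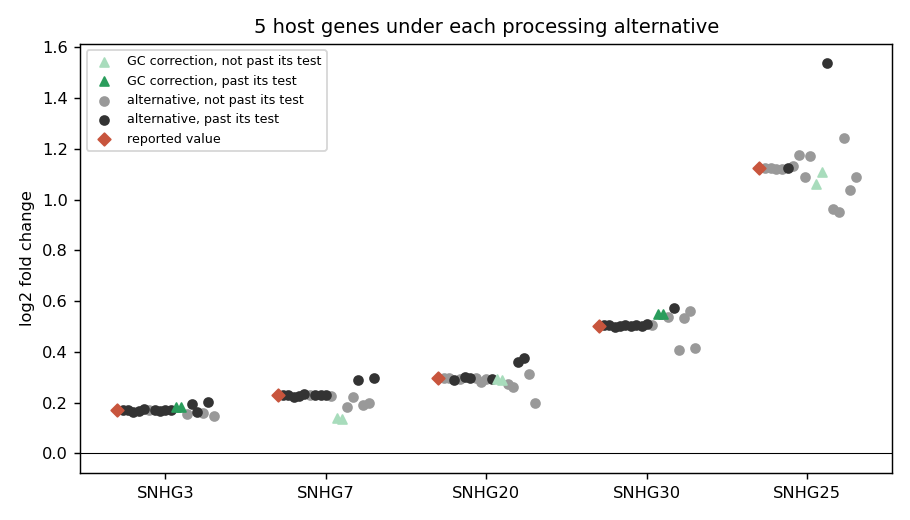
Log2 fold change of 5 hosts (the 3 called and the 2 nearest to the threshold) as reported and under 18 alternatives (17 for SNHG25), where a darker symbol is past the test used in that setting. Every value is above 0, and under the GC correction SNHG7 drops to 0.14.

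Many hosts share their start or their exons with another gene, and the strand setting of the counting is not stated, so reads of overlapping genes could not be told apart. Of the tested genes, 26 overlapped a host or started within 1000 bases of its start on the other strand, and they belonged to 20 hosts. Of these 26, 3 rose and 3 fell in shmiR155HG cells, where 7.26% of all genes tested were higher and 8.02% were lower. Whether the partners differ from other genes was not tested. SLC3A2, the heavy chain of amino acid transporters with SLC7A5, starts 51 bases from SNHG1 on the other strand. It was at 205.9, 193.0 and 194.7 CPM in shCtrl and at 248.0, 248.9 and 239.2 CPM in shmiR155HG replicates 1, 2 and 3. SLC3A2 rose in each library (log2 fold change 0.31, SE 0.039, adjusted p = 1.38e-06), while SNHG1 had a log2 fold change of 0.07, and the intervals, 0.23 to 0.39 and −0.01 to 0.15, did not overlap. The difference between the genes was not tested.

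RCC1, the nucleotide exchange factor of Ran, overlaps SNHG3 on the same strand and starts 37 bases from it. It was at 206.6, 205.3 and 219.7 CPM in shCtrl and at 211.6, 212.6 and 207.9 CPM in shmiR155HG replicates 1, 2 and 3. Its groups overlapped, with a log2 fold change of 0.0008 (95% interval −0.08 to 0.08), beside 0.17 for SNHG3. ZNFX1, which starts 248 bases from ZFAS1 on the other strand, was at 76.2, 79.0 and 82.7 CPM in shCtrl and at 88.6, 82.4 and 82.7 CPM in shmiR155HG replicates 1, 2 and 3 (log2 fold change 0.09, adjusted p = 0.308).

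**Figure D4:**
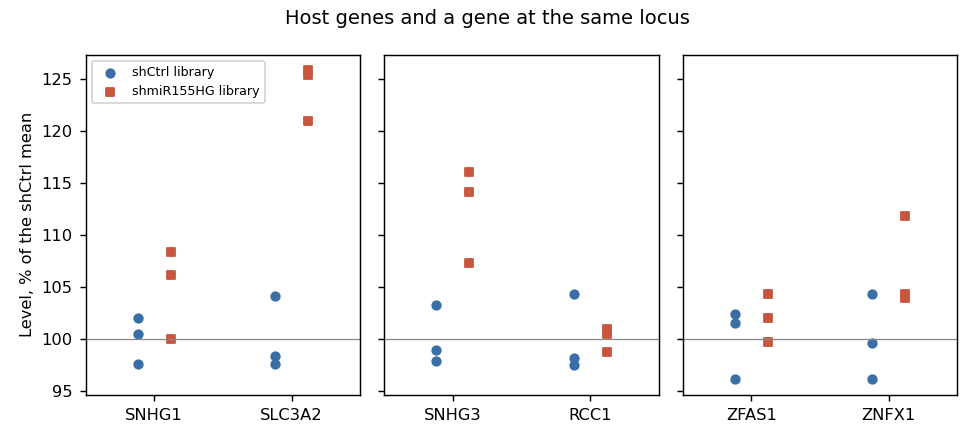
Level of 3 hosts and of a gene at the same locus, as a percentage of the shCtrl mean of that gene, with 1 circle per shCtrl library and 1 square per shmiR155HG library. SLC3A2 stands above its shCtrl libraries while SNHG1 overlaps its own, and SNHG3 stands above its shCtrl libraries while RCC1 overlaps them.

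At the locus of SNHG22 both partners changed. MYO5B, a motor protein of vesicle transport that overlaps SNHG22, rose from 335.0, 332.6 and 351.8 CPM in shCtrl to 441.0, 415.9 and 417.4 CPM in shmiR155HG replicates 1, 2 and 3 (log2 fold change 0.32, adjusted p = 1.88e-07). ACAA2, a thiolase of fatty acid oxidation that starts 12 bases away, fell from 268.1, 269.9 and 260.6 CPM to 235.6, 237.1 and 228.1 CPM (log2 fold change −0.19, adjusted p = 0.000556). Both genes are on the other strand from SNHG22. SEC14L1, which overlaps SNHG20 on the same strand, rose from 330.2, 345.7 and 352.3 CPM to 360.5, 377.5 and 369.4 CPM (log2 fold change 0.11, adjusted p = 0.0394). BARD1, the partner of BRCA1, starts 498 bases from SNHG31 and fell from 87.5, 82.8 and 84.9 CPM to 75.4, 75.6 and 77.3 CPM (log2 fold change −0.16, adjusted p = 0.0459). DIPK1B, which overlaps SNHG7 on the other strand, was at 4.76, 4.41 and 6.06 CPM in shCtrl and at 4.82, 3.39 and 5.74 CPM in shmiR155HG replicates 1, 2 and 3 (log2 fold change −0.13, adjusted p = 0.769).

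Further partners did not pass the test, and their values are given in the order of replicates 1, 2 and 3. Partners of abundant level changed little. RPS2, a protein of the small ribosomal subunit that starts 54 bases from SNHG9, was at 2153, 2184 and 2193 CPM in shCtrl and at 2190, 2146 and 2206 CPM in shmiR155HG libraries. UBE3A, the ubiquitin ligase that SNHG14 runs across on the other strand, was at 234.1, 232.6 and 234.2 CPM in shCtrl and at 238.4, 231.3 and 229.0 CPM in shmiR155HG libraries. SNRPN, which overlaps SNHG14 on the same strand, was at 30.4, 35.1 and 35.6 CPM in shCtrl and at 33.8, 33.2 and 34.9 CPM in shmiR155HG libraries. The groups overlapped for these 3 genes, with log2 fold changes of 0.0027, −0.0047 and 0.0096. GLRX5, a glutaredoxin of iron-sulfur cluster assembly that overlaps SNHG10, was at 88.6, 91.8 and 83.6 CPM in shCtrl and at 87.4, 91.2 and 93.2 CPM in shmiR155HG libraries. TRAF7, which starts 293 bases from SNHG19, was at 127.1, 135.8 and 140.4 CPM in shCtrl and at 122.0, 127.7 and 129.0 CPM in shmiR155HG libraries. ZBTB37, which starts 800 bases from GAS5, was at 20.6, 20.5 and 21.6 CPM in shCtrl and at 21.6, 19.99 and 20.6 CPM in shmiR155HG libraries. The groups of these genes overlapped too.

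MATR3, a nuclear matrix protein, overlaps SNHG4 on the same strand, so reads of these genes could be split between them. The overlapping MATR3 gene was at 298.1, 312.8 and 179.9 CPM in shCtrl and at 370.7, 383.6 and 401.3 CPM in shmiR155HG libraries. Each shmiR155HG library was above each shCtrl library, but the shCtrl libraries differed widely and the log2 fold change of 0.55 did not pass (95% interval −0.11 to 1.21). SIL1, on the other strand of the same locus, was at 17.97, 18.01 and 15.5 CPM in shCtrl and at 12.1, 15.5 and 15.8 CPM in shmiR155HG libraries (log2 fold change −0.25, adjusted p = 0.202). TRNAU1AP, which overlaps SNHG12, was at 15.9, 15.9 and 12.9 CPM in shCtrl and at 13.2, 13.4 and 15.3 CPM in shmiR155HG libraries. FSD2, which overlaps SNHG21, was at 7.20, 7.70 and 6.47 CPM in shCtrl and at 6.57, 6.86 and 6.97 CPM in shmiR155HG libraries. Both of these overlapped between the groups.

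Other partners lay below 3 CPM, where 1 library can carry the difference. GAS5-AS1 was at 2.57, 1.75 and 1.75 CPM in shCtrl and at 2.11, 2.18 and 1.70 CPM in shmiR155HG libraries. AC104066.4, which overlaps DANCR, was at 1.59, 1.65 and 1.03 CPM in shCtrl and at 2.24, 1.16 and 1.41 CPM in shmiR155HG libraries. The groups overlapped in each case. MCMDC2, which overlaps SNHG6, was at 1.002, 1.12 and 1.64 CPM in shCtrl and at 1.12, 0.604 and 1.88 CPM in shmiR155HG libraries. LRRC75A, which overlaps SNHG29, was at 1.31, 0.302 and 0.693 CPM in shCtrl and at 1.02, 1.02 and 0.239 CPM in shmiR155HG libraries. AC015802.6, which overlaps SNHG16, was at 1.41, 1.04 and 0 CPM in shCtrl and at 0.417, 0.394 and 0.777 CPM in shmiR155HG libraries. Those groups overlapped as well.

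The machinery that acts on these RNAs was read from lists of genes. Of 16 NMD factors, 3 were higher and 0 lower, beside 7.26% and 8.02% of all genes tested. All 16 had a mean of at least 20 CPM, where 20.3% of genes were called in either direction, so the share called was near the background. DESeq2 and limma-voom gave the same counts, while 6 had an unadjusted p under 0.05. UPF1, the helicase at the centre of NMD, had a log2 fold change of 0.25 (adjusted p = 5.13e-06). SMG9, a regulator of the kinase that phosphorylates UPF1, had 0.22 (adjusted p = 0.0258). The median of the list was 0.04. By the rule of the study 0 of the 16 were called.

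Of 17 tested mRNAs known to be degraded by NMD, 4 were higher and 1 was lower, beside 7.26% and 8.02% of all genes. Their median log2 fold change was 0.03. GADD45A (0.67, adjusted p = 0.000123) and UPP1 (0.29, adjusted p = 1.15e-05) rose, and MAP3K14 fell (−0.27, adjusted p = 0.00754). GADD45A is a stress-induced growth arrest gene and MAP3K14 encodes the NF-κB-inducing kinase. The part of NMD in the changes of these genes was not tested. Of 20 genes for snoRNA-binding proteins, 0 passed the test with the quasi-likelihood test, DESeq2, limma-voom or the rule of the study, and 3 had an unadjusted p under 0.05. NOP56 (−0.0042), NOP58 (−0.0061), FBL (−0.08) and DKC1 (0.02), the core proteins of the box C/D and H/ACA particles, all lay near 0 on the log2 scale.

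Protein-coding genes that also host snoRNAs were compared with the SNHGs. Of 47 such genes, 3 were higher and 8 lower, with a median log2 fold change of −0.0057. PPAN (0.21, adjusted p = 0.00401) and RABGGTB (0.16, adjusted p = 0.0226) rose, and RPL12 (−0.15, adjusted p = 0.00186) and SNX5 (−0.14, adjusted p = 0.0271) fell. Of 22 translation genes with a terminal oligopyrimidine tract, 1 was higher and 5 were lower, with a median of −0.02. EIF3F (0.21, adjusted p = 0.0145) rose, and NAP1L1 (−0.14, adjusted p = 0.00302) and EEF1A1 (−0.13, adjusted p = 0.000497) fell. Shares of all genes at the same test were 7.26% higher and 8.02% lower. Every gene of both lists had a mean of at least 20 CPM, where 20.3% of genes were called in either direction. Whether the lists differ from other genes of that level was not tested.

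**Figure D5:**
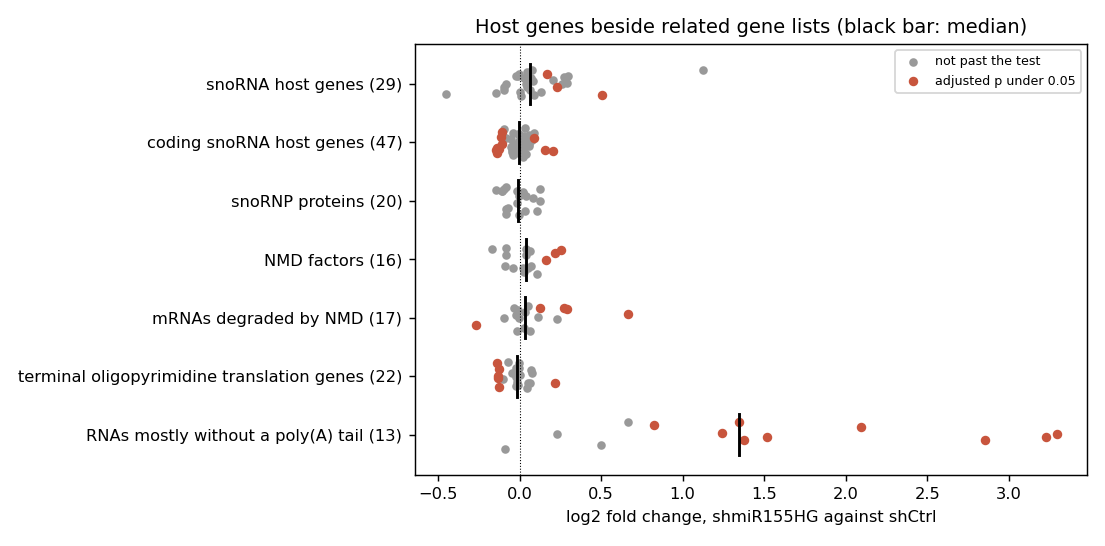
Log2 fold change of each tested gene of the SNHGs and of 6 gene lists (number of genes in brackets), with points spread vertically to be seen, red for an adjusted p under 0.05 and a black bar for the median. The medians of all lists lie between −0.02 and 0.07 except that of RNAs mostly without a poly(A) tail, at 1.34. Part of that list passed the filter only through shmiR155HG libraries.

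Genes whose RNAs mostly lack a poly(A) tail, which oligo(dT) beads capture poorly, also differed between the groups. Counts per gene do not tell whether the reads came from RNA with or without a tail. Of 20 RNAs that mostly lack a poly(A) tail, chiefly replication-dependent histone mRNAs and RMRP, 13 passed the filter. Of the 13, 9 were higher and 0 lower in shmiR155HG libraries, beside 7.26% and 8.02% of all genes, with a median log2 fold change of 1.34. HIST2H3D, HIST1H4C, RMRP, HIST2H2BE and HIST1H4H were below 1 CPM in every shCtrl library and passed the filter only through shmiR155HG libraries. For these genes the filter favoured a rise, and the count and the median include them. Their summed level was 47.4 to 51.9 CPM in shCtrl and 90.9 to 99.9 CPM in shmiR155HG libraries, and HIST1H2BG was at 0. HIST2H3D (3.30) and HIST1H4C (3.23) had the largest log2 fold changes, both at low levels. HIST2H3D was at 0 to 0.274 CPM in shCtrl and 0.777 to 1.66 CPM in shmiR155HG libraries. HIST1H4C was at 0.103 to 0.384 CPM in shCtrl and 1.58 to 3.10 CPM in shmiR155HG libraries. The snoRNAs also lack a poly(A) tail. The 32 hosts span 148 named snoRNAs and scaRNAs in RefSeq, but the table had 1 row for an RNA of this kind, SCARNA9, with 4 to 12 counts in each group, which did not pass the filter. The part of this in the levels of the hosts was not tested.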

How the data were processed

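The authors aligned reads of 150 bases in pairs to hg38 with HISAT2, counted reference genes with StringTie and prepDE.py3, and deposited whole-number read counts per gene, without normalization. Tool versions, annotation release and strandedness are not given in the sources used here. Groups follow the sample titles, since the treatment labels of 2 shmiR155HG libraries carry another number in the gene's name. The members and gene lists were chosen with earlier results of these data known.

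Counts were tested in R 4.3.3 with edgeR 4.0.16 (TMM scaling, more than 1 CPM in at least 2 libraries, robust quasi-likelihood test, Benjamini-Hochberg adjustment over 12263 genes, adjusted p under 0.05, two-sided). Total counts of 33454786 to 39157264 per library limit the precision of low genes, and intervals of a fold change are 95% intervals from this fit. Alternatives used DESeq2 1.42.0, limma 3.58.1, edgeR's exact test, other scalings and filters, halved counts, a GC correction by a loess curve per library, the replicate block and each library left out. Every tested host was named, those past the test, GAS5, ZFAS1, DANCR, EPB41L4A-AS1 and SNHG1 with all values, genes at the same locus where tested, of which some are not reported here, and at most 2 rises and 2 falls per list. Values for SNHG20, SNHG25, SNHG32, core snoRNP proteins and further cell type markers were given after they were seen. Positions, lengths and GC content come from GENCODE v44, which can differ from the authors' annotation, and snoRNAs and start sites from RefSeq GRCh38.p14.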

Additional observations from a re-analysis of the deposited data

How the results depend on the processing

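The median log2 fold change of the hosts ranged from 0.05 to 0.08 over all 18 alternatives. The number of hosts called higher was 2 to 4 in the 12 alternatives that keep all libraries and 1 to 3 when 1 library was left out, and the number lower was 0 except for SNHG32 without shCtrl replicate 3 (range 0 to 1). With the GC correction 2 hosts were higher, SNHG3 and SNHG30. Replicate numbers did not pair the libraries (correlations of the deviations of same-numbered libraries of −0.01, 0.01 and 0.02). With the replicate block 2 hosts were higher, SNHG3 and SNHG20, with adjusted p of 0.0690 for SNHG7 and 0.0570 for SNHG30. By the exact test with the rule of the study SNHG30, SNHG25 and SNHG20 were called, since SNHG3 and SNHG7 did not reach its fold change. That rule, as run here, also gave 552 higher and 467 lower genes over the whole table. The study reported more genes in each direction, and the reason for this difference was not tested. In the 5 lists of NMD, snoRNP, coding host and translation genes the rule gave 3 higher and 1 lower. The main test of this report gave 890 and 984 over the whole table, and 11 and 13 in the 5 lists. In these lists 7 genes were lower with GC correction and block. Leaving out 1 library gave 580 to 891 genes higher, 674 to 917 lower, and in these lists 6 to 13 higher and 6 to 10 lower.

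Hosts near 0 changed sign. SNHG14 was 0.0011 with DESeq2 size factors, 0.0024 with total counts, 0.0039 with a mean of at least 5 CPM, 0.0012 with DESeq2, 0.0035 with limma-voom, 0.00026 with halved counts and 0.0041 with the block. SNHG11 was −0.0042 with limma-voom, −0.017 with GC correction and −0.016 with GC correction and block, where SNHG6 was 0.00037, 0.044 and 0.047. With 1 library left out, the ranges were −0.13 to 0.088 for DANCR, −0.086 to 0.096 for SNHG11, −0.053 to 0.089 for SNHG14, −0.042 to 0.0095 for SNHG17, −0.13 to 0.20 for SNHG19 and −0.067 to 0.064 for SNHG6. The cause was not tested. The planned test of snoRNA genes was not run, because the 1 row of this kind was below the filter. Depth limits the 10 hosts under 20 CPM.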
